A study of Mus musculus with 12 samples.

Results

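The transcripts of Cx3cr1, Adgre1 and Fcgr3 were followed in cultures of activated bone marrow-derived mast cells (BMMCs). These 3 genes, of 754 endogenous and reference genes on the panel, were taken by name as known markers of monocytes and macrophages. The choice was made on measured values: with the mouse as a block in the fit, Cx3cr1 was among the genes called lower in si12A and si12A+C against siGLO and Fcgr3 among those called lower in si12A+C, and the macrophage and monocyte markers had been seen to be lower as a list in si12A. The values of these comparisons are therefore given below as a description, without a test.

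BMMCs were grown from total bone marrow in IL-3 for several weeks, and their RNA was counted on the nCounter Myeloid Innate Immunity Panel, an assay without amplification in which barcoded probes bound to their transcripts are counted one by one. There were 4 groups of 3 libraries, 1 per mouse. The cells received si12A (siRNAs against Zc3h12a, which encodes Regnase-1), si12C (siRNAs against Zc3h12c, which encodes Regnase-3), si12A+C (both) or siGLO. The methods name siGLO as a green transfection indicator that served as the control. Whether it controls for general effects of an siRNA was not tested. All 12 cultures, the controls included, received IgE with its antigen for 2 h at 48 h after the siRNAs. Each library was made from 50 ng of RNA. Strain C57BL/6 is given in the methods for the mice, and no group carried a named mutation. Libraries of equal replicate number were taken as cells of 1 mouse split over the 4 siRNAs. This pairing is inferred, since the methods name none for this assay. The siRNAs were given to the whole culture, so that any cells other than mast cells in it received them as well. According to the methods, nearly all cells of such cultures carried FcεRIα and c-Kit, the surface receptors used to identify mast cells. Regnase-1 and Regnase-3 are endonucleases that bind stem-loops in messenger RNAs and restrain inflammatory transcripts. Zc3h12a and Zc3h12c are not among the panel genes analysed here, so the knockdown itself could not be checked in these counts.

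Cx3cr1 encodes the receptor for fractalkine, the chemokine made by Cx3cl1, and guides monocytes, tissue macrophages and some lymphocytes. Adgre1 encodes F4/80, an adhesion G protein-coupled receptor used as a surface marker of mouse macrophages. Fcgr3 encodes an activating low-affinity receptor for IgG that signals through the gamma chain shared with the IgE receptor. Fcgr3 is found on macrophages and natural killer cells, and mouse mast cells carry it too, so it does not mark macrophages alone. Bone marrow holds precursors of both lineages, and long culture in IL-3 favours mast cells.

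RefSeq promoter windows (build GRCm38.p6, from 250 bases before to 50 bases after the start) were held for Cx3cr1 and Fcgr3, the genes among the 3 that were above background in 12 of 12 libraries, and are shown so that their letters can be set side by side. Capitals mark any match to GAGGAA, the core of the site of PU.1 (the myeloid factor), to the letters AGATAA, known from sites of GATA factors, or to TGTGGT, known from sites of RUNX factors, on either strand, and no 2 of these matches overlapped. Both lie on the minus strand and are printed in the direction of transcription.
Cx3cr1, chr9:120068247-120068546: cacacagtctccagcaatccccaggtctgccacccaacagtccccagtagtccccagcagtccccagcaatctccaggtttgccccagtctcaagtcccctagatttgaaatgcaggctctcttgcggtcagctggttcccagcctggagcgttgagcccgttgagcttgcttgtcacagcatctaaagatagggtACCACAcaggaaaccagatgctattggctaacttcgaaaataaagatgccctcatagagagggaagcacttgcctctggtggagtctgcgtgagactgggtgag
Fcgr3, chr1:171059354-171059653: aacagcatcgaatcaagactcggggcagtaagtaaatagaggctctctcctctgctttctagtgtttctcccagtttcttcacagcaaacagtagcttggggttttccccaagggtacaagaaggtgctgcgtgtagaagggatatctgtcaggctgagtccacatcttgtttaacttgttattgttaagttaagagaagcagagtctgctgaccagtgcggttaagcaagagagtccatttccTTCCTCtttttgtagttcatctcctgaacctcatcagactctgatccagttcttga
The Cx3cr1 window held 1 match, the RUNX letters on the opposite strand (ACCACA), and the Fcgr3 window held 1, the PU.1 letters on the opposite strand (TTCCTC). A second Fcgr3 window, with a start 9 bases further along, held the same PU.1 match and no other. Of all 32851 promoter windows, 28.3% held the PU.1 letters, 11.2% the GATA letters and 16.8% the RUNX letters, and a match is a description of the letters and not of a bound site.

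Library totals ran from 439015 to 795758 counts over the 12 libraries. The 8 negative control probes, which have no target, averaged 8.25 to 13.6 counts per library, and a gene was taken as above background where its count lay over their mean plus 2 SD in that library, a level of 15.3 to 25.9 counts. A gene was tested when it did so in at least 3 libraries, which kept 496 genes, the 3 markers among them. All 10 mast cell markers, among them Cpa3, Cma1, Fcer1a and Il1rl1, were above background in 12 of 12 libraries. Equal replicate numbers were taken as cells of 1 mouse.

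Cx3cr1 was above background in every library. Its raw counts were 90, 65 and 90 in si12A of mice 1, 2 and 3, 90, 83 and 71 in si12C, 51, 53 and 80 in si12A+C, and 111, 96 and 135 in siGLO. They were 5.10 to 15.9 times the mean of the negative controls of their own library. In each mouse the siGLO library was the highest, and si12A+C was lowest in mice 1 and 2, with si12C lowest in mouse 3.

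Adgre1 sat close to background. Its raw counts were 16, 30 and 26 in si12A, 37, 43 and 24 in si12C, 30, 64 and 31 in si12A+C, and 24, 45 and 26 in siGLO. It passed the background in 10 of 12 libraries. In si12A of mouse 1 it had 16 counts (exact 95% Poisson interval 9.15 to 26.0) against a background level of 23.2, and this count was also below the highest negative control probe of that library, at 20. In siGLO of mouse 1 it had 24 counts (15.4 to 35.7) against 24.2, and 23 for the highest negative control probe. Such intervals cover counting error only.

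Fcgr3 lay at 12.5 to 28.6 times the mean of the negative controls and was above background in 12 of 12 libraries. Its raw counts were 204, 211 and 279 in si12A, 230, 219 and 181 in si12C, 125, 145 and 214 in si12A+C, and 187, 208 and 243 in siGLO. In mice 1 and 2 the si12A+C library was the lowest, and in mouse 3 the si12C library. Levels are set here against the negative controls alone, since probes bind with different efficiency and counts of different genes were not compared.

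**Figure D1:**
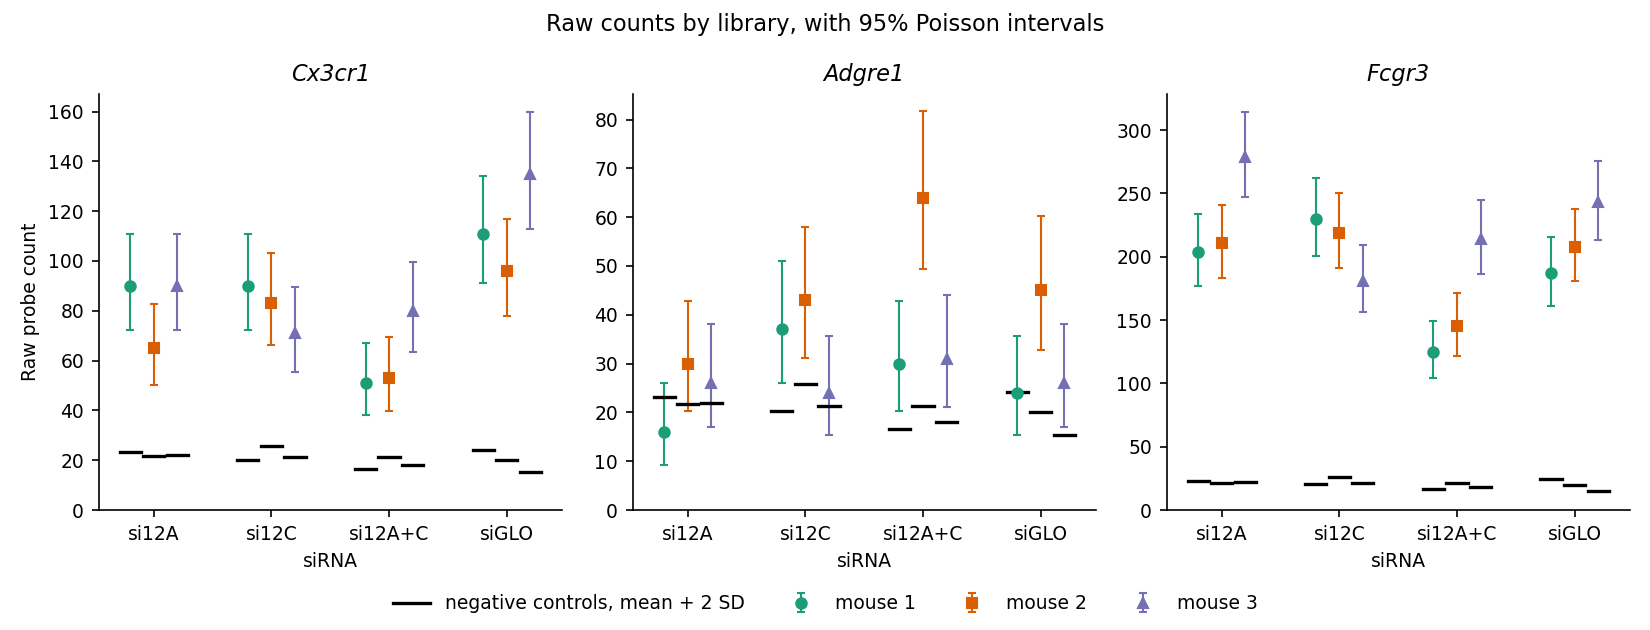
Raw probe counts of Cx3cr1, Adgre1 and Fcgr3 (y axis, each panel on its own scale) in the 12 libraries, grouped by siRNA, with bars for the exact 95% Poisson interval and black ticks for the background level of each library (mean plus 2 SD, negative controls). Cx3cr1 and Fcgr3 lie clear of the ticks in 12 of 12 libraries, and Adgre1 passes them in 10 of 12.

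To compare libraries, counts were divided by the effective library size (TMM) and brought to the mean size, and are called scaled counts. Cx3cr1 had 75.8, 74.0 and 66.1 scaled counts in si12A of mice 1, 2 and 3, against 102, 151 and 142 in siGLO. Both groups did not overlap. The means were 72.0 ± 5.14 in si12A and 131 ± 26.1 in siGLO (SD, n = 3 each), and the fitted log2 fold change was -0.87 ± 0.25 (SE), or -0.85 ± 0.18 with the mouse as a block. Within mice the difference was -0.42 in mouse 1, -1.03 in mouse 2 and -1.10 in mouse 3, the smallest of them in mouse 1. Genes that were lower in si12A with no overlap between groups made up 9.27% of the 496 tested.

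In si12A+C, Cx3cr1 had 54.1, 69.1 and 64.0 scaled counts, again under each of the 3 siGLO libraries (102, 151 and 142). The means were 62.4 ± 7.61 in si12A+C and 131 ± 26.1 in siGLO (SD, n = 3 each). The log2 fold change was -1.07 ± 0.25, or -1.06 ± 0.19 with the block, and the 3 mice lay close together at -0.91, -1.13 and -1.15. Genes lower in si12A+C with no overlap made up 5.24% of those tested.

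Without the mouse in the fit, 0% of genes were called in each of the 5 comparisons (adjusted p of at most 0.05 by edgeR's quasi-likelihood test and a log2 fold change beyond 0.5), while the unadjusted p was under 0.05 in 38 genes in si12A, in 2 in si12C and in 33 in si12A+C against siGLO, and in 14 in si12A+C against si12A and 15 against si12C. DESeq2 without the block called 1 gene in si12A and 3 in si12A+C against siGLO, with Cx3cr1 among those 3, and 1 in si12A+C against si12C. With the block, 3.63% of genes were called lower in si12A and 2.62% in si12A+C against siGLO. Cx3cr1 was called lower in both and Fcgr3 in si12A+C, which is how these genes came to be looked at. With the block, the call of Cx3cr1 in si12A was lost in 6 of 15 fits that left out a mouse or a library (mouse 2, mouse 3, and the si12A and siGLO libraries of each of these mice), with log2 fold changes of -1.03 to -0.70 over the 15. In si12A+C it was lost without mouse 3 only among those 15, at -1.01 ± 0.23. The calls of Cx3cr1 in both groups were also lost on the reference gene scaling.

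The Zc3h12c siRNA alone was set against siGLO, a comparison that shares its control libraries with the comparisons that chose the genes. High siGLO values that favoured the choice also lower si12C against siGLO. Here and below, the p-values and intervals of this comparison are therefore not independent of the choice for Cx3cr1, Adgre1 or Fcgr3. Cx3cr1 had 78.3, 118 and 65.6 scaled counts in si12C, against 102, 151 and 142 in siGLO, and the highest si12C library lay above the lowest siGLO library. The log2 fold change was -0.59 ± 0.25 and did not pass the test (edgeR, adjusted p = 0.999, and 0.275 with the block, where it was -0.61 with a 95% interval of -1.01 to -0.22). It was below 0 in each mouse, at -0.38, -0.35 and -1.11. With the block, 0.403% of genes were called in this comparison, in either direction. In the deposited log2 table, from which differences between mice had largely been removed, limma-trend gave -0.58 ± 0.09 for Cx3cr1 and called it (adjusted p = 0.000868). That fit had no term for the mouse and so took no account of the removal. Its SE and adjusted p therefore tend to be too small, and the call is not taken as evidence of a difference. The SE with the block in edgeR was 0.18.

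What si12C added to si12A was read from si12A+C against si12A. The values that chose the genes came from both of these groups, so that the p-values of this comparison are not independent of the choice for any of the 3 genes. Cx3cr1 had 54.1, 69.1 and 64.0 scaled counts in si12A+C and 75.8, 74.0 and 66.1 in si12A, and both groups overlapped. The log2 fold change was -0.21 ± 0.25 (edgeR, adjusted p = 0.999, and 0.667 with the block, 95% interval -0.63 to 0.20). Scaling on the positive controls put it at 0.15 with the block, where the median of all genes in this comparison moved to 0.37, and scaling on the reference genes at 0.03, where the median moved to 0.25, so that relative to the median gene Cx3cr1 stayed lower in si12A+C. With the block, 0% of genes were called in this comparison. In si12A+C against si12C, a comparison that shares the si12A+C libraries with the choice, Cx3cr1 had 54.1, 69.1 and 64.0 scaled counts in si12A+C and 78.3, 118 and 65.6 in si12C, at -0.45 ± 0.19 with the block. It was not among the 3.02% of genes called there, and in mouse 3 both libraries were nearly equal (-0.04).

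Adgre1 had 13.5, 34.1 and 19.1 scaled counts in si12A of mice 1, 2 and 3, against 22.0, 70.7 and 27.3 in siGLO. The si12A library was lower in mice 2 and 3 (-1.05 and -0.51), while in mouse 1 neither library was above background. The groups overlapped, with siGLO of mice 1 and 3 below si12A of mouse 2. In raw counts it was lower in 2 of 3 mice and equal in mouse 3, at 26 counts in both libraries. The log2 fold change was -0.83 ± 0.62, or -0.76 ± 0.25 with the block, where it was not called. Where the mean of the negative controls was subtracted first, it was -1.41 ± 0.94, and without siGLO of mouse 2 it was -0.17.

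In si12C, Adgre1 had 32.2, 61.3 and 22.2 scaled counts, against 22.0, 70.7 and 27.3 in siGLO. The log2 fold change was -0.04 ± 0.60 (edgeR, adjusted p = 0.999), and 0.01 with the block (adjusted p = 0.997, 95% interval -0.50 to 0.52). Mice 2 and 3 differed by -0.21 and -0.30, and in mouse 1 the gene was above background in si12C and not in siGLO. Without siGLO of mouse 2 the value was 0.62, and without si12C of mouse 2 it was -0.51.

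In si12A+C, Adgre1 had 31.8, 83.4 and 24.8 scaled counts, and the 64 raw counts of mouse 2 were its highest in the series. Against siGLO, with 22.0, 70.7 and 27.3, the log2 fold change was 0.24 ± 0.60, or 0.21 ± 0.23 with the block. Without si12A+C of mouse 2 it was -0.46, and without siGLO of mouse 2 it was 0.90. Against si12A, with 13.5, 34.1 and 19.1, Adgre1 was higher by 1.29 in mouse 2 and by 0.38 in mouse 3. In mouse 1 it was above background in si12A+C and not in si12A, so the size of that difference is not given. The fitted difference over the 3 mice, 1.06 ± 0.61, did not pass the test (edgeR, adjusted p = 0.999, and 0.155 with the block, where it was 0.97 with a 95% interval of 0.45 to 1.49). It passed in 1 of 41 alternatives, the block with scaling on the positive controls, at 1.38, where the median of all genes was 0.37. Against si12C the value was 0.20 ± 0.23 with the block.

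Fcgr3 had 133, 189 and 171 scaled counts in si12A+C of mice 1, 2 and 3, against 172, 327 and 255 in siGLO. It was lower in each mouse, at -0.37, -0.79 and -0.58 on the log2 scale, while the groups overlapped, because si12A+C of mouse 2 lay above siGLO of mouse 1. The means were 164 ± 28.8 in si12A+C and 251 ± 77.8 in siGLO (SD, n = 3 each), and the log2 fold change was -0.61 ± 0.30, or -0.58 ± 0.16 with the block. The call with the block was lost in 9 of 15 fits that left out a mouse or a library: mouse 2, mouse 3, any of the 3 si12A+C libraries, siGLO of mouse 2 or 3 and si12A of mouse 1 or 3, with values of -0.71 to -0.46 over the 15. It was also lost on the positive control and reference gene scalings.

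In si12A, Fcgr3 had 172, 240 and 205 scaled counts against 172, 327 and 255 in siGLO, and the log2 fold change was -0.29 ± 0.29, with differences of 0, -0.45 and -0.31 in the 3 mice. In each mouse its raw count was above that of siGLO, before any scaling for library size. On the positive controls it was at -0.76 with the block, where the median of all genes was -0.49. In si12C it had 200, 312 and 167 scaled counts against 172, 327 and 255 in siGLO, and the log2 fold change was -0.15 ± 0.29 (edgeR, adjusted p = 0.999, and 0.971 with the block, 95% interval -0.48 to 0.19).

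In si12A+C against si12A, Fcgr3 had 133, 189 and 171 scaled counts in si12A+C and 172, 240 and 205 in si12A. It was lower in each mouse, at -0.37, -0.35 and -0.26, which is the narrowest spread over mice of any comparison of the 3 genes. The log2 fold change was -0.32 ± 0.30 (edgeR, adjusted p = 0.999, and 0.398 with the block, 95% interval -0.66 to 0.02). On the positive controls it was at 0.05 with the block, against the median of 0.37 over all genes. Against si12C the value was -0.44 ± 0.16 with the block, and mouse 3 did not share the direction (-0.59, -0.72 and 0.03).

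**Figure D2:**
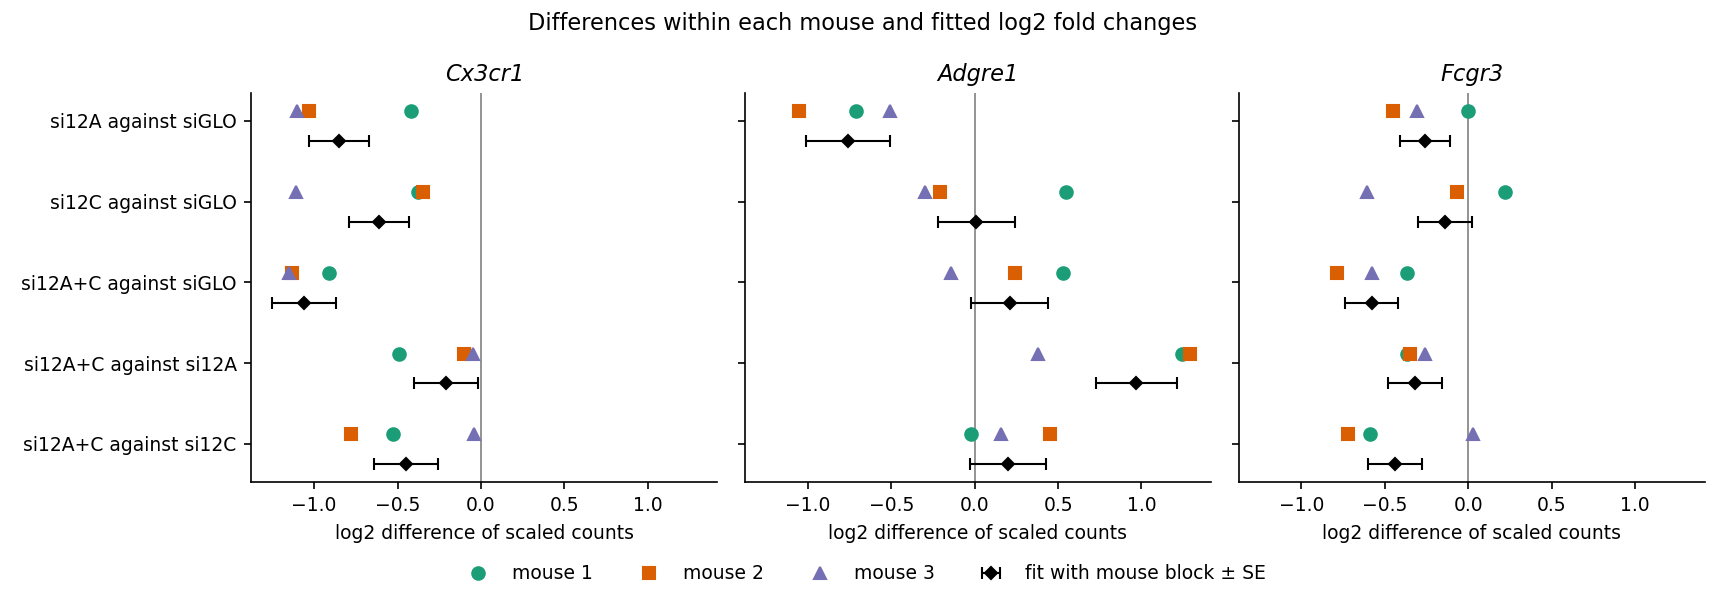
Differences in log2 scaled counts within each mouse (coloured points) and fitted log2 fold changes with the mouse as a block (black, bars for SE) for the 5 comparisons, 1 panel per gene. Cx3cr1 lies left of 0 in each mouse in si12A and si12A+C against siGLO, Adgre1 lies right of 0 in si12A+C against si12A (its si12A and siGLO counts of mouse 1 are not above background), and Fcgr3 in si12A+C lies left of 0 against both siGLO and si12A.

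The difference between mice was not used to choose the genes and was tested over all 12 libraries with the group in the fit. Adgre1 differed between mice (edgeR, adjusted p = 9.15e-05), with 62.4 ± 20.9 scaled counts in mouse 2, 24.9 ± 8.94 in mouse 1 and 23.3 ± 3.51 in mouse 3 (SD over the 4 siRNAs of a mouse). Fcgr3 differed as well (adjusted p = 0.00426), with 267 ± 64.4 in mouse 2, 169 ± 27.7 in mouse 1 and 200 ± 40.6 in mouse 3. Its raw counts were not highest in mouse 2, at 145 to 219 against 181 to 279 in mouse 3. Scaling multiplied counts by 1.138 to 1.572 in mouse 2 and by 0.735 to 1.061 in the other mice. How much of the Fcgr3 difference comes from this scaling was not tested. Mouse, culture and run cannot be told apart here. Cx3cr1 did not pass (adjusted p = 0.127), with 103 ± 38.8, 77.5 ± 19.5 and 84.3 ± 38.2 in mice 2, 1 and 3. Of all tested genes 57.7% differed between mice, so that 2 of these 3 genes is not far from the share over the panel. For Adgre1 and Fcgr3 the difference rested on mouse 2: without it the adjusted p was 0.906 for Adgre1 and 0.309 for Fcgr3.

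Whether other macrophage and monocyte markers were present was read from a list of 21 genes, all on the panel, which holds Cx3cr1 and Adgre1. Of these, 3 passed the background in 12 of 12 libraries: Ly6c1, Cx3cr1 and Cd68. Another 11 passed it in 0 of 12 libraries, namely Csf1r, the receptor for the macrophage growth factor, the complement genes C1qa, C1qb and C1qc, the chemokine receptor Ccr2, Mertk, a receptor for dying cells, Mpeg1, Marco, Siglec1, Stab1 and Aif1. Csf1r had 3 to 14 counts and Mertk 3 to 12, which is the level of the negative controls. Between these, Adgre1 passed in 10 libraries, Mrc1 in 9, Fcgr1 in 8, Timd4 in 4, Cd14 and Cd163 in 2 each and Trem2 in 1. Members of this list thus differed widely, with Cd68 at 28 to 116 counts and Cx3cr1 at 51 to 135 in the same libraries in which Csf1r and the complement genes were not above background. Ly6c1, which many other leukocytes and endothelial cells share, held most of the counts of the list.

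**Figure D3:**
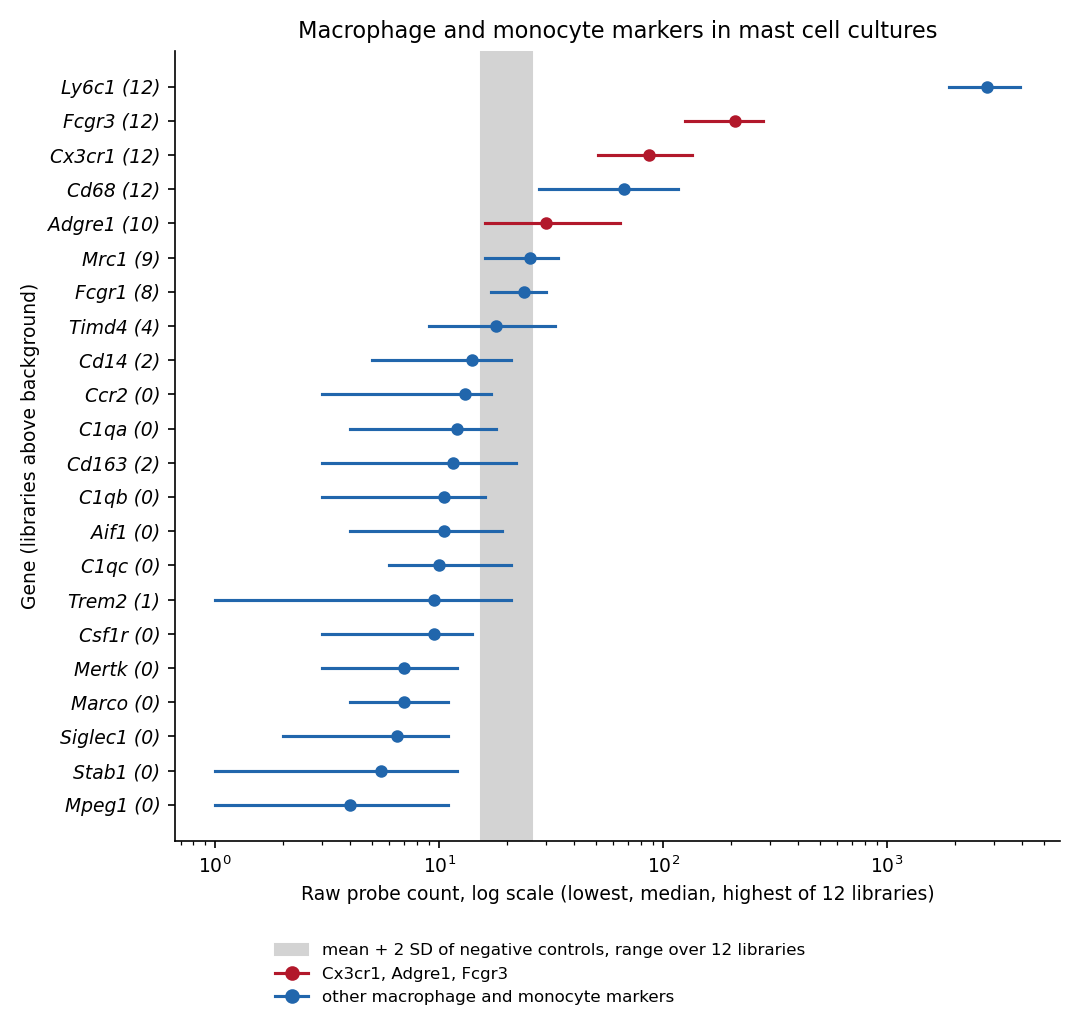
Lowest, median and highest raw count over the 12 libraries (x axis, log scale) of the 21 macrophage and monocyte markers and of Fcgr3, ordered by median, with the number of libraries above background beside each name. The grey band is the range of the background level, 15.3 to 25.9 counts, and 11 of the markers pass it in none of their libraries.

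The summed scaled counts of the 21 markers ran from 2440 to 4450 in si12A, 2260 to 4310 in si12C, 2350 to 4690 in si12A+C and 2330 to 5230 in siGLO, with all groups overlapping. Ly6c1 alone averaged 2980 ± 1010 in si12A and 3190 ± 1400 in siGLO (SD, n = 3 each). The sums thus follow Ly6c1 and say little about the other markers. Of the 7 tested markers, 7 had a log2 fold change below 0 in si12A against siGLO (median -0.19, against 0.02 over all tested genes), with Mrc1 at -0.46, Cd68 at -0.17 and Ly6c1 at -0.10. Tested markers of other cell types shared this direction: 3 of 3 lymphocyte markers (median -0.60), 4 of 4 dendritic cell markers (-0.30) and 2 of 2 eosinophil markers (-0.16) were below 0 in si12A, against 1 of 3 neutrophil markers (0) and 3 of 10 mast cell markers (0.06). Several tested markers lay near background: Cd247 and Cd74 passed it in 3 of 12 libraries, and Ctla4, Ccr7 and the macrophage marker Timd4 in 4. The tallies of signs are therefore a description and show no shared change. In si12A+C against siGLO 3 of 7 were below 0 (median 0.11, against 0.01), and in si12A+C against si12A 1 of 7, Cx3cr1 itself (median 0.36, against -0.01). In si12C against siGLO 5 of 7 were below 0 (median -0.20, against 0). Cx3cr1 was the only one called with the block, in si12A and si12A+C against siGLO. Cd68, a lysosomal protein, averaged 60.6 ± 10.4 scaled counts in si12A, 53.2 ± 13.8 in si12C, 73.5 ± 19.7 in si12A+C and 68.2 ± 7.47 in siGLO (SD, n = 3), and so did not share the order of Cx3cr1. In RNA of whole cultures, fewer cells of a type and less RNA per cell cannot be told apart.

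Fcgr3 was also read beside 10 other Fc receptor genes and signalling partners. Fcgr2b, the inhibitory IgG receptor, had 93 to 232 raw counts and was above background in 12 of 12 libraries, Fcgr1 in 8, and Fcgr4 in 0. Fcgr2b averaged 183 ± 46.0 scaled counts in si12A, 124 ± 41.5 in si12C, 140 ± 37.7 in si12A+C and 151 ± 31.5 in siGLO (SD, n = 3), and it was called in none of the 5 comparisons. Fcgr3 and Fcgr2b are near-identical over part of their length, and whether either probe binds the other transcript was not tested. Fcer1a, which encodes the IgE-binding chain of its receptor, averaged 32300 ± 1780 in si12A, 31400 ± 2080 in si12A+C and 33700 ± 3100 in siGLO. Tyrobp, an adaptor of myeloid and natural killer cell receptors, was the other gene of this list called with the block, lower in si12A+C against si12C (-0.54 ± 0.11, edgeR, adjusted p = 0.0149). Against siGLO, Tyrobp was at -0.45 ± 0.11 in si12A (edgeR with the block, adjusted p = 0.0324) and -0.43 ± 0.11 in si12A+C (0.0271). With the block, both missed the call by the limit of 0.5 on the log2 fold change only. Without the block none of these differences of Tyrobp passed the test. It was then at -0.43 in si12A against siGLO (edgeR, adjusted p = 0.746) and -0.54 in si12A+C against si12C (0.993). With the block, Tyrobp was at 0.10 ± 0.11 in si12C against siGLO and 0.02 ± 0.11 in si12A+C against si12A.

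Cx3cl1, the ligand of the Cx3cr1 receptor, was above background in 0 of 12 libraries, with 1 to 10 counts. Among 18 chemokine receptors on the panel, 5 were above background in every library: Cx3cr1, Ccr1, Ccr3, Ccrl2 and Cxcr5. Ccr1, a receptor that mast cells carry, averaged 627 ± 354 scaled counts in si12A, 548 ± 244 in si12A+C and 460 ± 138 in siGLO, the other direction from Cx3cr1, with no call. Most receptors shared the direction of Cx3cr1 in si12A against siGLO: 6 of 8 tested, Cx3cr1 included, were below 0 (median -0.36). Ccr6 was at -1.12 and Cxcr3 at -0.74, above background in 10 and 7 of 12 libraries, and neither was called with the block. In si12A+C against siGLO 4 of 8 were below 0 (median -0.03), with Cx3cr1 lowest at -1.07. Adgre5, an adhesion receptor of the same family as Adgre1, had 235 to 830 counts. It did not pass the call in si12A (0.22 ± 0.10) or si12A+C (0.28 ± 0.10) against siGLO with the block. In si12A+C against si12C Adgre5 was at 0.42 ± 0.10 (edgeR with the block, adjusted p = 0.0406). There it missed the call by the limit of 0.5 only, and without the block the adjusted p was 0.993.

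Markers of other cells were also near background for the most part. Of 9 neutrophil markers 0 were above it in every library, of 7 eosinophil markers 2 (Siglecf and Ccr3), of 10 dendritic cell markers 0 and of 9 lymphocyte markers 1 (Nkg7). The summed scaled counts of the lymphocyte markers were 133 to 137 in si12A, 144 to 199 in si12C, 119 to 188 in si12A+C and 162 to 200 in siGLO. In raw counts, 9 probes at the mean of the negative controls would sum to 96.7, which is not a baseline for scaled sums. Scaling multiplied counts, background included, by 0.735 in si12A of mouse 3 and by 1.572 in siGLO of mouse 2. How much of the gap between groups is scaled background was not tested. The scaled sums were below each siGLO library in si12A, as Cx3cr1 was, and their part in its values was not tested.

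Cx3cr1 and Fcgr3 varied together. Both were chosen for lower values in si12A+C, which is part of any correlation across groups. After removal of the mean of each mouse, log2 scaled counts of both correlated over the 12 libraries at r = 0.861, a description over libraries that share mice and depth. With the mean of each group removed as well, a step added after the data were seen, it was 0.852. For Adgre1 the values were 0.124 with Cx3cr1 and -0.027 with Fcgr3, and 0.107 and 0.415 with the group means removed. The genes most like Cx3cr1 among 301 well-counted ones were Cdc20 (0.893), Angpt1 (0.877), Il18r1 (0.864), Fcgr3 (0.861) and Zmpste24 (0.860). Those most like Fcgr3 were Sptbn1 (0.870), Cx3cr1, Selplg (0.860), Insig1 (0.850) and Tuba4a (0.820). Those most like Adgre1 were Tnfrsf9 (0.863), Psme2 (0.841), Gsn (0.770), Nkg7 (0.724) and Hras (0.709).

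The scaling set part of the size of these values. The positive controls, which are added in equal amount to each sample, had geometric means of 1047, 1046 and 1157 counts in si12A of mice 1, 2 and 3, against 824.5, 392.1 and 619.1 in siGLO, and scaling on them moved the median of all genes in si12A against siGLO to -0.49. On that scale Cx3cr1 was at -1.35 and Fcgr3 at -0.76 with the block, so that relative to the median gene Cx3cr1 stayed lower. On the 20 reference genes Cx3cr1 was at -0.96 ± 0.28 in si12A and -0.93 ± 0.29 in si12A+C against siGLO with the block, where the medians of all genes were -0.09 and 0.17. Over all 42 alternatives Cx3cr1 was below 0 in both, at -1.40 to -0.70 in si12A and -1.25 to -0.91 in si12A+C. The gene had been chosen for lower values there, so the shared sign is a description.

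**Figure D4:**
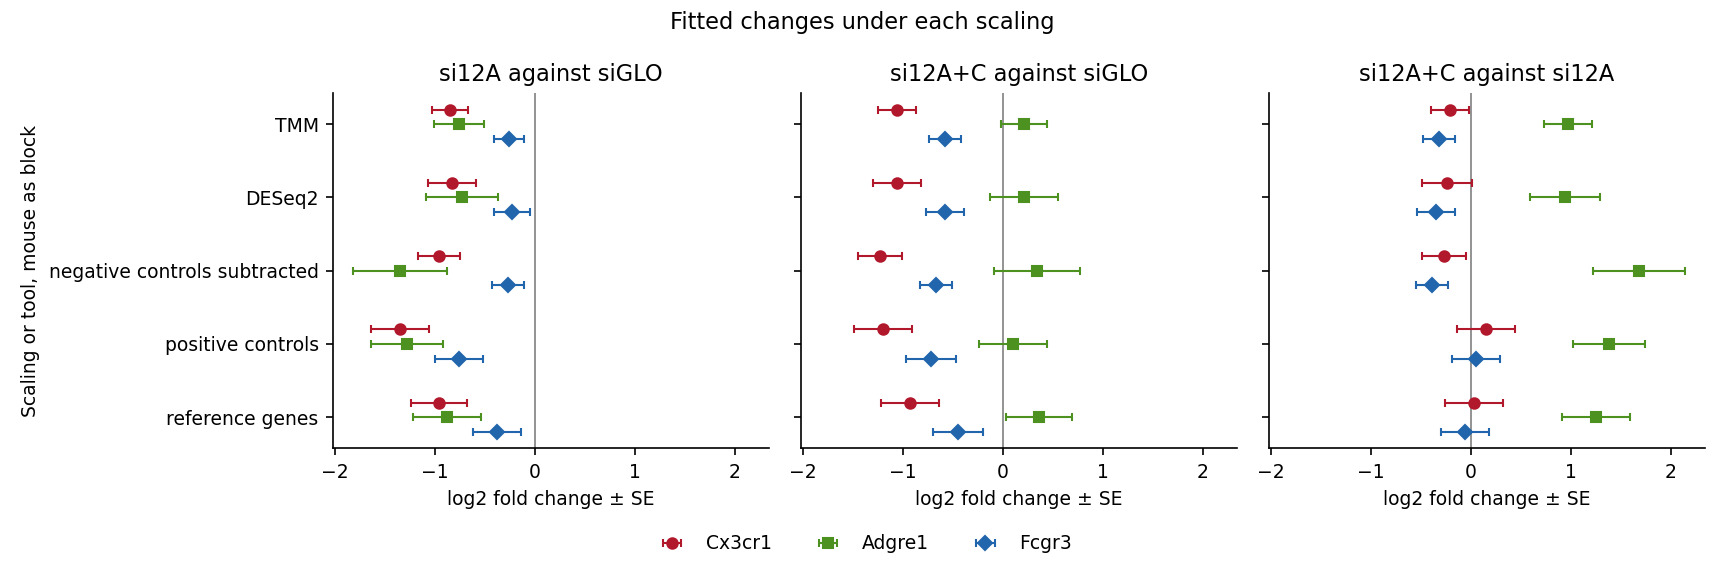
Fitted log2 fold changes with the mouse as a block (x axis, bars for SE) of Cx3cr1, Adgre1 and Fcgr3 under 5 scalings or tools, 1 panel per comparison. Cx3cr1 lies below 0 against siGLO under each of them, and in si12A+C against si12A Cx3cr1 is at -0.21 on TMM, 0.15 on the positive controls and 0.03 on the reference genes, where the medians of all genes were 0.37 and 0.25.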

How the data were processed

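BMMC RNA from 4 siRNA groups of 3 mice was counted on an nCounter SPRINT instrument. The authors deposited raw counts per probe, not scaled or background-subtracted as far as the values show, and a table of log2 values for 325 probes in which differences between mice had largely been removed (used as an alternative, and without Adgre1). The methods name nSolver and Omics Playground. Counts were fitted in R 4.3.3 with edgeR 4.0.16 (quasi-likelihood F test, TMM, 12 libraries, 1 coefficient per group, Benjamini-Hochberg over 496 probes), with limma 3.58.1 and DESeq2 1.42.0 as alternatives. SE is the absolute log2 fold change over the square root of F. A call needs an adjusted p of at most 0.05 and a log2 fold change beyond 0.5. The replicate number was added as a block in the paired fit: it pairs the samples since the series text names 3 mice and the count headers share a code per number. Deviations from group means correlated at 0.0897 to 0.852 over the 18 same-number pairs, and 12 of 12 libraries correlated best with their own number. No pair of replicates matched within sampling noise (chi-square per degree of freedom at least 15). The fits were tested on simulated counts. Genes of like pattern needed a mean scaled count of at least 50. The members, lists and rule for named genes (the 3 markers, up to 4 abundant members and the undetected ones of each list, the 5 most alike genes) were chosen with earlier results of these data known. Columns of the authors' own comparisons were not used. 1 gene of the marker lists is not reported here.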

Additional observations from a re-analysis of the deposited data

How the results depend on the processing

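Values are given as the count of called genes or the log2 fold change. Cx3cr1 was below 0 in 42 of 42 alternatives in si12A and in si12A+C against siGLO. Fcgr3 was below 0 in 42 of 42 in si12A+C, and Adgre1 in 41 of 41 in si12A. The alternatives refit the same libraries, and lower values in these comparisons had led to the choice of genes. These tallies thus describe the fits and are no independent check of the direction. With the replicate block, the pairing by mouse, 27 genes were called in si12A, 2 in si12C and 30 in si12A+C against siGLO, 0 in si12A+C against si12A and 15 against si12C, against 0 in each without it, and Adgre1 in si12C turned to 0.01. By DESeq2 the counts were 1 in si12A and 3 in si12A+C against siGLO and 1 in si12A+C against si12C, and with the block 36, 2, 27, 3 and 15 in the order of the comparisons above, with Adgre1 in si12C at 0.02. From the log2 values that were deposited, limma-trend without a term for the mouse called 40, 12, 40, 17 and 29 genes, among them Cx3cr1 in si12C at -0.58. With the negative controls subtracted and the block they were 33, 2, 31, 0 and 17. That subtraction put Adgre1 in si12A at -1.41 (-1.35 with the block) and in si12C at 0.02 with the block, and Cx3cr1 in si12A+C at -1.25 (-1.23 with the block).

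Scaling on the positive controls with the block called 131 genes in si12A, all lower, 0 in si12C, 11 in si12A+C (5 lower and 6 higher) against siGLO, 18 in si12A+C against si12A, all higher, and 2 against si12C (1 lower and 1 higher). The TMM split with the block was 18 lower and 9 higher in si12A, 13 and 17 in si12A+C and 9 and 6 in si12A+C against si12C. On that scale the values in si12A were -1.40 for Cx3cr1 (-1.35 with the block), -1.43 for Adgre1 (-1.28) and -0.84 for Fcgr3 (-0.76), and Cx3cr1 was at -1.21 in si12A+C against siGLO. In si12A+C against si12A the median of all genes moved to 0.37 with the block. Cx3cr1, at 0.18 (0.15 with the block), and Fcgr3, at 0.08 (0.05), crossed 0 with it but stayed below it, and Adgre1 passed the test at 1.38 with the block. Genes that differed between mice were 187 in place of 286. Scaling on the reference genes with the block called 1 gene in si12A (lower), 1 in si12C (higher), 12 in si12A+C (1 lower and 11 higher), 1 in si12A+C against si12A and 2 against si12C. It put Cx3cr1 at -0.93 in si12A+C against siGLO and at 0.07 (0.03 with the block, median of all genes 0.25) in si12A+C against si12A, and Adgre1 in si12C at 0.01 with the block. Cx3cr1 passed the test between mice on this scaling (adjusted p = 0.0459) and without mouse 3 (adjusted p = 0.047).

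Leaving out a mouse or 1 library, with and without the block, gave counts of 0 to 71 in si12A, 0 to 5 in si12C and 0 to 45 in si12A+C against siGLO, 0 to 2 in si12A+C against si12A and 0 to 27 against si12C, each highest with the block and without mouse 1. Against siGLO, Adgre1 ran from -1.25 to -0.17 in si12A, -0.51 to 0.62 in si12C and -0.46 to 0.90 in si12A+C, in each case set by the libraries of mouse 2, and from -0.42 to 0.75 in si12A+C against si12C. Fcgr3 ran from -0.50 to -0.05 in si12A, -0.45 to 0.08 in si12C and -0.82 to -0.38 in si12A+C, and Cx3cr1 from -1.23 to -0.91 in si12A+C. Genes that differed between mice numbered 59 without mouse 2 and 294 without mouse 1. The causes of these shifts were not tested. Against the highest negative control probe in place of the mean plus 2 SD, Adgre1 passed in 11 libraries, and Cx3cr1 and Fcgr3 in 12. Adgre1, at 1.17 to 7.01 times the mean of the negative controls, is limited by counting error and background.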
